A study of Mus musculus with 6 samples.

Results

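Abundant long non-coding RNAs of 2 classes, those retained in the nucleus and those that host small nucleolar RNAs (snoRNAs), were followed across the 6 libraries of the series. The list named 9 of them by symbol. Malat1, Neat1 and Kcnq1ot1 are nuclear-retained, and Gas5, Snhg1, Snhg8, Snhg12, Snhg15 and Epb41l4aos are snoRNA hosts. A row was matched for 7 of the 9 among the 35275 gene identifiers, 3 nuclear-retained RNAs and 4 hosts. Snhg1 and Snhg8 were not matched to a row and are not analysed here. The RNAs were chosen by their levels and group differences in these same FPKM values, so those are given as a description without p-values.

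The cells were epidermal cells from the back skin of CD1 IGS mouse embryos at E16.5 (days of gestation), with doxycycline in the chow of the dams from E14.5. The protocol names the transgenes K10-rtTA, TRE-H2B-GFP and TRE-Spastin, in which the keratin 10 promoter of suprabasal keratinocytes drives a doxycycline-dependent activator of a nuclear green fluorescent protein and of spastin, an enzyme that severs microtubules. Cells were freed with dispase and then trypsin with versene, and H2BGFP-positive cells were sorted for 3 control and 3 K10-spastin libraries, each an independent RNA sample per the labels. Neither the transgenes of the control embryos nor the number of embryos in a library were given in the sources used here. The p-values therefore measure only how these libraries vary, part of which may be technical.

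Malat1 lies in nuclear speckles, bodies that store splicing factors. Neat1 is the scaffold on which paraspeckles form, and Kcnq1ot1 is an imprinted antisense transcript that silences genes of its domain on the paternal chromosome. The host genes carry snoRNAs in their introns. Splicing releases the snoRNAs, which guide chemical modification of ribosomal RNA, and many of the spliced host transcripts, Gas5 among them, are short-lived because translation brings them to nonsense-mediated decay. Several hosts begin with a run of pyrimidines, as the mRNAs of ribosomal proteins do.

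Depth read from the steps of the low values was 16.0 to 22.5 M (mega) fragments per library. Values are FPKM, fragments normalised to gene length and to library size, and 3 fragments in a 1 kb transcript were worth 0.134 to 0.187 FPKM. Spast stood at 21.2 to 24.0 FPKM in controls and at 213 to 1431 FPKM in K10-spastin (log2 change 4.65 ± 0.60, limma adjusted p = 0.00865). The suprabasal markers summed to 51690 to 67980 FPKM in controls and 31270 to 46230 FPKM in K10-spastin, and the basal markers to 4083 to 7171 and 2495 to 4723 FPKM. Most of the suprabasal sum was Krt10 and Krt1, with means of 27670 and 23120 FPKM in controls. A lower mean in K10-spastin was found for only 3 of the 6 suprabasal markers and 4 of the 6 basal markers. The median log2 changes were -0.07 and -0.89. Scaling by the median of ratios would divide K10-spastin 1 by 0.8105 and the other libraries by 1.012 to 1.083. It moved the median log2 change of all tested genes from -0.09 to 0.05, so the changes given here are read against that shift.

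The letters around the annotated starts are shown first because they differ between the hosts, and because a pyrimidine start is known from several of them. RefSeq starts (build GRCm38.p6) were used for 7 of the named RNAs. No sequence was used here for Neat1 and Epb41l4aos, which does not mean that RefSeq lists no start for them. Each sequence runs from 40 bases before the start to 20 after it on the strand of the gene. Capitals mark the letters TATA where they begin 40 to 20 bases before the start, and a run of at least 5 C or T that begins 5 bases before to 10 bases after it. Only the strand of the gene was searched, and the TATA and the run did not overlap in any sequence shown.
Gas5, the second of its 2 listed starts, chr1:161035126-161035185, plus strand: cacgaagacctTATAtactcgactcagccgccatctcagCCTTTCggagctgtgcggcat
Snhg12, chr4:132308638-132308697, plus strand: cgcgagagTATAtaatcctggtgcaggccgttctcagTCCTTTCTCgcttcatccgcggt
Snhg1, chr19:8723447-8723506, plus strand: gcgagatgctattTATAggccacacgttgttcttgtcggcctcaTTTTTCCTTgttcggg
Snhg8, chr3:123508317-123508376, minus strand: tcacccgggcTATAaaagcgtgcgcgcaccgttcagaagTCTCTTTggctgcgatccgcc
Snhg15, chr11:6528741-6528800, minus strand: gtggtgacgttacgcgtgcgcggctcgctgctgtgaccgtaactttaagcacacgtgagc
Malat1, chr19:5802653-5802712, minus strand: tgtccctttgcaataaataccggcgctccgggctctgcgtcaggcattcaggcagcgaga
Kcnq1ot1, chr7:143296528-143296587, minus strand: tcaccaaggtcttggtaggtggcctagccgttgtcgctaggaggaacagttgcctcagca

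Gas5, Snhg12, Snhg1 and Snhg8 held both features, and Snhg15, Malat1 and Kcnq1ot1 held neither. The first listed start of Gas5 also held neither. Of 14 other snoRNA hosts whose RefSeq starts were searched, 2 (Snhg5 and Snhg7) held both, 4 held the run alone and 8 held neither. The features were therefore not general among the hosts searched. Of 32851 RefSeq windows of the same length, 5.81% held the TATA, 28.4% the run and 1.86% both. A match of letters is a description of the annotation and does not show that a factor binds there.

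Malat1 was the most abundant of the 7 RNAs, and its groups overlapped. It measured 586.6, 812.4 and 917.5 FPKM in controls 1 to 3 and 604.6, 599.5 and 680.9 FPKM in K10-spastin 1 to 3. Control 1 was the lowest library of all 6, and the spread was wider in controls (772 ± 169 FPKM, SD, n = 3) than in K10-spastin (628 ± 45.6 FPKM). The log2 change was -0.27 ± 0.18 (SE), and Malat1 was not called.

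Neat1 was lower in every K10-spastin library than in any control. Its level was 37.12, 105.4 and 112.7 FPKM in controls and 22.88, 11.07 and 18.73 FPKM in K10-spastin. Control 1 lay well below the other controls and closest to the K10-spastin libraries. The means were 85.0 ± 41.7 and 17.6 ± 5.99 FPKM (SD, n = 3), a ratio of 4.84, and the log2 change was -2.11 ± 0.45. The annotation of GENCODE M21 gives Neat1 4 transcripts, short and long, and the table has 1 value for all of them. The call was lost under 6 of 16 other settings, which were no filter on low values, median-of-ratios scaling, the replicate block, and the fits without control 2, control 3 or K10-spastin 2.

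Relative to its neighbour Malat1, Neat1 amounted to 6.33%, 13.0% and 12.3% in controls and to 3.78%, 1.85% and 2.75% in K10-spastin. The groups did not overlap in this ratio, which does not depend on the scaling of a library. In bulk samples such as these, fewer cells of a type and less RNA per cell cannot be told apart. Markers of fibroblasts, cells of the dermis, moved in the same order of groups. The 6 markers summed to 6.44, 22.5 and 42.3 FPKM in controls and to 0.791, 3.03 and 2.25 FPKM in K10-spastin, and all 6 had a lower mean in K10-spastin, 5 of them without overlap. Red cell markers summed to 7.64 to 331 FPKM in controls and 3.795 to 17.4 FPKM in K10-spastin, melanocyte markers to 3.61 to 15.2 and 1.91 to 23.8 FPKM, immune markers to 0.443 to 0.7999 and 0.209 to 1.997 FPKM, and endothelial markers to 0.153 to 0.334 and 0.239 to 0.332 FPKM. Cd207 and Cd3e of the immune list were at 0. The part of these cells in the Neat1 difference was not tested.

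**Figure D1:**
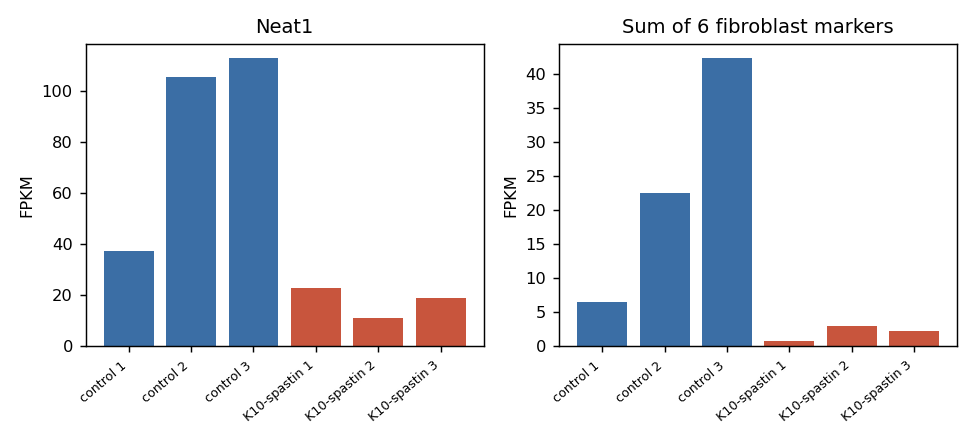
Neat1 level (FPKM, left panel) and the summed level of 6 fibroblast markers (FPKM, right panel), 1 bar per library, both on linear axes. Control 1 has the lowest value of the controls in both panels, and the 3 K10-spastin libraries are below all controls in both. Within K10-spastin the order is reversed between the panels. K10-spastin 1 is the highest of its group for Neat1 and the lowest for the markers, and K10-spastin 2 is the other way round.

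Kcnq1ot1 went against the label of an abundant RNA. It was at 0.103, 0.204 and 0.271 FPKM in the control libraries, against 0.0669, 0.0618 and 0.0683 FPKM in K10-spastin, without overlap. The mean was 0.193 ± 0.0842 FPKM in controls and 0.0657 ± 0.00344 FPKM in K10-spastin (SD, n = 3), a ratio of 2.93. It was left out of the test because its mean was below 1 FPKM. If the M21 length of 93092 bases is the one used, these levels stand for about 216, 303 and 417 fragments in controls and 108, 113 and 110 in K10-spastin, against 3 fragments at 0.00143 to 0.00201 FPKM. Kcnq1ot1 is antisense to Kcnq1. No source used here states whether strand was kept, and without strand the reads of the pair cannot be told apart. Kcnq1 itself had 0.674, 0.947 and 1.13 FPKM in controls, was listed at 0 in K10-spastin 1 and 2, and had 0.134 FPKM in K10-spastin 3.

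The genes of the imprinted domain did not move one way. Of 15 listed genes 11 were tested, 2 rose and 1 fell, with a median log2 change of -0.05. Over all tested genes 5.14% were called higher and 5.90% lower. Cdkn1c, a cell cycle inhibitor expressed from the maternal allele, fell from 30.9, 33.0 and 30.7 FPKM to 2.26, 4.73 and 11.6 FPKM (log2 change -2.40 ± 0.44, limma adjusted p = 0.0203). Phlda2, also maternally expressed, rose by 1.13 ± 0.21 (limma adjusted p = 0.0201). Tnfrsf23, a decoy receptor of the same domain, rose from 1.92, 4.45 and 4.63 FPKM to 74.0, 29.0 and 13.1 FPKM (2.82 ± 0.58, limma adjusted p = 0.0284). The calls of Cdkn1c, Phlda2 and Tnfrsf23 were lost in 4, 5 and 6 of 16 other settings.

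Gas5 was the most abundant host. It measured 229.6, 160.1 and 153.8 FPKM in controls and 112.5, 142.2 and 133.4 FPKM in K10-spastin, so the groups did not overlap. Control 1, the lowest control for Malat1, Neat1 and Kcnq1ot1, was the highest for Gas5. The means were 181 ± 42.1 and 129 ± 15.3 FPKM, the log2 change was -0.47 ± 0.18, and Gas5 was not called. Gas5 overlaps Zbtb37 in the RefSeq annotation, and reads of overlapping genes may be split between them.

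Snhg15 was lower in all K10-spastin libraries, at 5.56, 9.32 and 7.89 FPKM against 16.54, 13.26 and 16.53 FPKM in controls. The means were 7.59 ± 1.90 and 15.4 ± 1.89 FPKM, a ratio of 2.04, with a log2 change of -0.95 ± 0.21. The call was lost in 7 of 16 other settings, which were no filter, the replicate block, the fits that left out control 1, control 2, control 3 or K10-spastin 3, and the fit that left out control 1 together with K10-spastin 1.

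Snhg12 and Epb41l4aos overlapped between groups. Snhg12 was at 15.4, 12.4 and 12.4 FPKM in controls and 8.34, 17.2 and 10.5 FPKM in K10-spastin, where K10-spastin 2 was the highest library of all 6. Its log2 change of -0.20 ± 0.26 became 0.01 without K10-spastin 1. Epb41l4aos was at 23.3, 28.6 and 24.2 FPKM in controls and 26.9, 14.1 and 18.5 FPKM in K10-spastin (log2 change -0.38 ± 0.24), with K10-spastin 1 the highest of its group. It was called lower under array weights only.

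**Figure D2:**
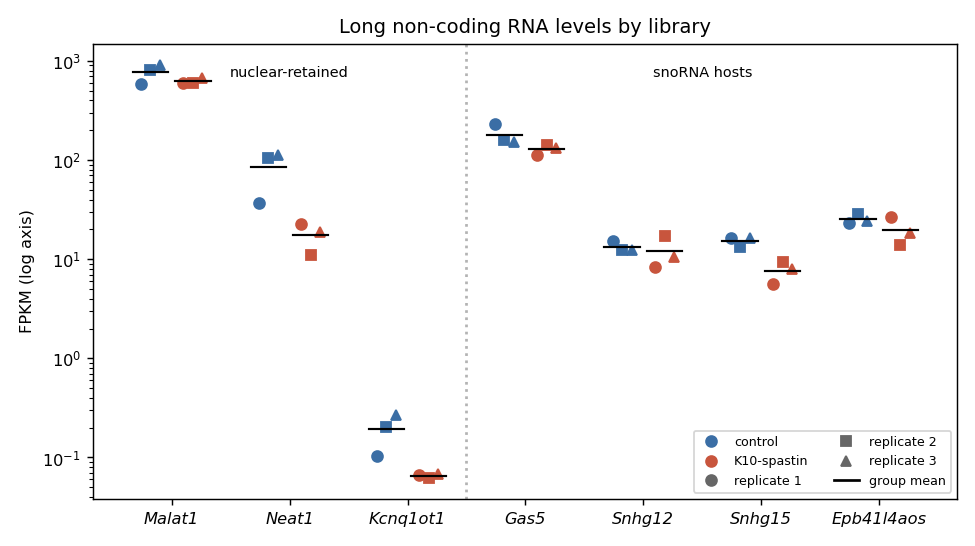
Level (FPKM, log axis) of the 7 RNAs in each of the 6 libraries, controls and K10-spastin side by side, with 1 point per library. Neat1, Kcnq1ot1, Gas5 and Snhg15 have no K10-spastin point above a control point, and the other 3 overlap.

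Of the 7 RNAs with a row, 6 were tested, 2 were called lower, none was called higher and 4 were not called. Over all 11071 tested genes 11.0% were called, 5.90% lower and 5.14% higher. All 3 K10-spastin libraries were below all controls for 4 of the 7, the untested Kcnq1ot1 among them, and for 3 of the 6 tested. Over all tested genes this held for 24.8%, with 15.6% the other way. The median log2 change of the 6 tested RNAs was -0.42, and that of all tested genes was -0.09. An exact permutation test of 3 against 3 cannot go below a two-sided p of 0.1.

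In levels per length the order was Malat1, Gas5, Neat1, Epb41l4aos, Snhg12, Snhg15 and Kcnq1ot1 by the mean of all libraries. Malat1 and Gas5 kept apart from their neighbours in this order in both groups. Neat1 and Epb41l4aos did not overlap in controls but did in K10-spastin, as did Epb41l4aos and Snhg12, and Snhg12 and Snhg15 overlapped in both groups. Kcnq1ot1 was far below all of them. Among the 5367 listed genes that GENCODE M21 classes as long non-coding, Malat1 ranked 3, Gas5 6, Neat1 12, Epb41l4aos 24, Snhg12 34, Snhg15 36 and Kcnq1ot1 1051. That class also holds genes that RefSeq lists as protein coding, Tmem134 and Ifi30 among them. Without these the ranks among 5307 were 3, 5, 9, 18, 28, 30 and 1034.

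The hosts as a class were lower in K10-spastin, and the nuclear-retained RNAs were lower by more, but the difference between the classes was within the spread. The mean log2(FPKM + 1) of the 4 hosts was 5.02 ± 0.117 in controls and 4.52 ± 0.133 in K10-spastin, a change of -0.50. For the 3 nuclear-retained RNAs it was 5.36 ± 0.437 and 4.52 ± 0.184, a change of -0.85. Host minus nuclear was 0.29, -0.61 and -0.72 in controls and -0.25, 0.35 and -0.10 in K10-spastin, so the groups overlapped. The difference of 0.35 between the classes ranged from 0.16 to 0.79 over 11 other settings. Replication-dependent histones, whose mRNAs lack a poly(A) tail as mature Malat1 does, summed to 135 to 180 FPKM in controls and 89.8 to 122 FPKM in K10-spastin, and mitochondrial mRNAs to 14920 to 21680 and 13690 to 23460 FPKM. Gm42418, known to overlap ribosomal RNA repeats, was at 402 to 591 FPKM in controls and 699 to 1139 FPKM in K10-spastin (log2 change 0.82 ± 0.23, limma adjusted p = 0.0608). Their part in the result was not tested. On log2(FPKM + 1) the difference between the classes rests mainly on Neat1. The Malat1 change of -0.27 was smaller than the mean change of the hosts. Kcnq1ot1 lies below 1 FPKM, where this scale understates its change, and its mean in controls was 2.93 times that in K10-spastin. With a pseudocount of 0.1 the difference between the classes was 0.54, so its size depends on the pseudocount. The share of Kcnq1ot1 in it was not tested separately.

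**Figure D3:**
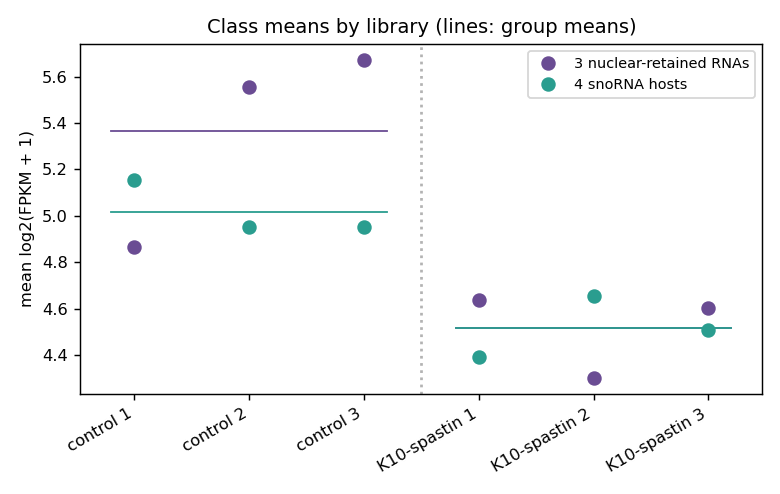
Mean log2(FPKM + 1) of the 3 nuclear-retained RNAs and the 4 snoRNA hosts in each library, with the group mean as a line. The host values of controls (4.95 to 5.15) are above those of K10-spastin (4.39 to 4.66), and the 2 class means of K10-spastin coincide at 4.52.

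Of 16 other snoRNA hosts on a list, 10 had a row and 6 were tested. All 6 had a negative log2 change, with a median of -0.42, and 1 was called. Snhg17 fell from 27.5, 20.4 and 19.9 FPKM to 8.31, 10.3 and 9.06 FPKM (log2 change -1.20 ± 0.18, limma adjusted p = 0.0131). The call was lost without control 2 or control 3. Snhg20 had a change of -0.71 ± 0.24 (limma adjusted p = 0.0909), Snhg5 of -0.48 ± 0.18 (limma adjusted p = 0.125) and Zfas1 of -0.27 ± 0.29 (limma adjusted p = 0.555). Of the 10 tested hosts, listed members and others together, 7 were highest among controls in control 1 and 9 were lowest among K10-spastin in K10-spastin 1, with Epb41l4aos the exception. With median-of-ratios scaling these counts were 6 and 6. The number whose groups did not overlap was 6 on either scale. Over all tested genes as deposited, all K10-spastin libraries were below all controls for 24.8%, and that share is not given for the scaled values. The 4 listed members among these hosts were chosen by their group differences in these data, so the count is a description.

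**Figure D4:**
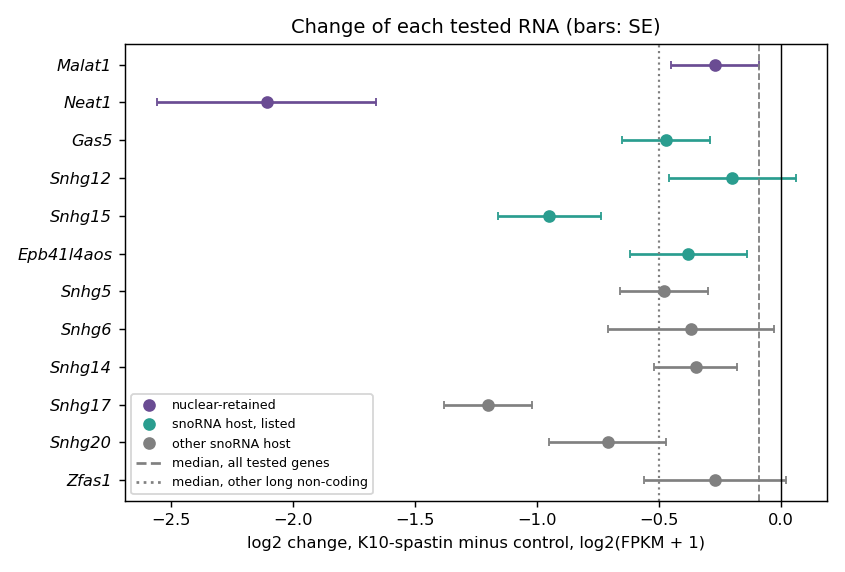
Log2 change (K10-spastin minus control, on log2(FPKM + 1)) of the tested members and related long non-coding RNAs, with bars of 1 SE. Neat1 is lowest among the members at -2.11, and the tested hosts lie at or below -0.20.

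Among other long non-coding RNAs on the list, 25 were named, 23 had a row and 15 were tested. Firre, a nuclear RNA that organises chromatin, fell from 38.6, 40.7 and 41.9 FPKM to 16.0, 18.0 and 17.9 FPKM (-1.18 ± 0.13, limma adjusted p = 0.00546), and was called in all 16 other settings. Mir17hg, the host of a microRNA cluster, fell by 1.46 ± 0.33 (limma adjusted p = 0.0342), and Crnde by 1.17 ± 0.29 (limma adjusted p = 0.0432), while Rian of an imprinted cluster rose by 1.36 ± 0.33 (limma adjusted p = 0.0415). Mir17hg (means 3.19 and 0.436 FPKM) and Rian (0.270 and 2.44 FPKM) reached the 1 FPKM filter only through the group where they were high, so that their calls rest partly on the filter. The calls of Mir17hg, Crnde and Rian were lost in 7 of 15, 7 of 16 and 8 of 14 other settings. H19, the most abundant long non-coding RNA, was at 3121, 2517 and 2744 FPKM in controls and 1048, 3629 and 1532 FPKM in K10-spastin, and was not called. Xist was at 63.3 to 64.2 FPKM in controls 2 and 3 and at 48.2 FPKM in K10-spastin 3, and was no higher than 0.0573 FPKM in the other 3 libraries. Control 1 was thus the only control with low Xist. Sex of the embryos was not a term in the fit, and its part in the group differences was not tested.

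The wider class of long non-coding genes is given for comparison. Of 254 tested genes of the M21 class other than the members, 39 were called lower (15.4%) and 5 higher, with a median log2 change of -0.50 and 81.9% negative. Over all tested genes 5.90% were lower, the median was -0.09 and 58.4% were negative. Leaving out genes that RefSeq lists as protein coding, 37 of 242 were called lower (15.3%) and 5 higher, with a median of -0.51. No set test was run, so this stands as counts. Of the 39 lower genes 15, and of the 5 higher genes 3, had a mean below 1 FPKM in the group where they were low. They entered the test only through the other group and so had to differ. The number called lower was 23, 6 and 2 without control 1, 2 and 3, where 223, 67 and 31 of all genes were called lower. It was 15 without K10-spastin 2 and 12 with the replicate block. With median-of-ratios scaling the share was 11.2% against 5.83%, and with quantile normalization 10.2% against 8.02%. With no filter on low values the shares were close, at 1.88% of 2499 genes against 1.66%, with medians of -0.04 and -0.03. There 70.3% and 60.8% were negative. A filter at 5 FPKM gave 23.6% of 55 genes against 5.02%, with medians of -0.50 and -0.05. Limma without trend gave 18.1% against 6.12%, and array weights gave 37.4% against 16%. The 5 higher genes, chosen for naming after their values were seen, were Rian, Gm14221, Gm13781, 2610035D17Rik and Gm14005.

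**Figure D5:**
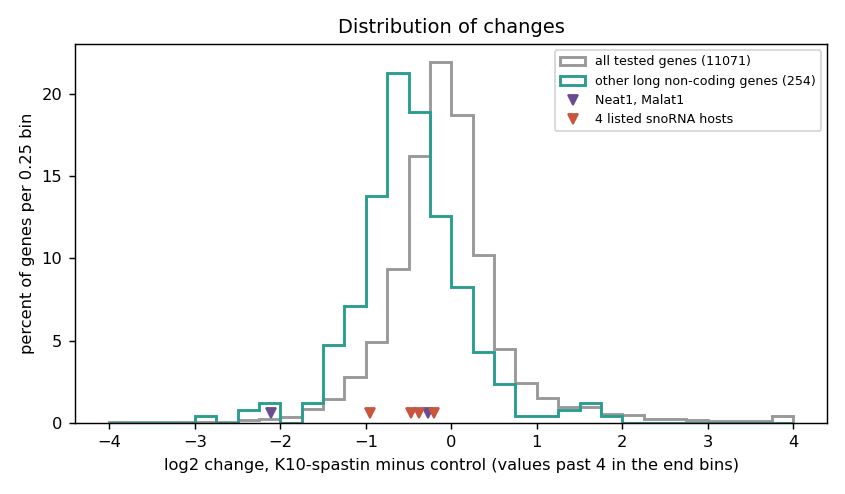
Distribution of log2 changes (K10-spastin minus control, x axis; percent of genes per bin, y axis) of the M21 long non-coding genes other than the members and of all tested genes, with triangles at the 6 tested members. The medians are -0.50 and -0.09.

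Few genes whose products work with these RNAs passed the test. None of 23 tested paraspeckle proteins was called by limma, and 5 had an unadjusted p under 0.05 (median log2 change -0.18). Matr3 had a change of -0.55 ± 0.17 (limma adjusted p = 0.0788), Hnrnpk of 0.07 ± 0.12 (0.702) and Sfpq, which binds Neat1, of 0.18 ± 0.20 (0.574). Of 24 nuclear speckle proteins 2 fell, none rose and 22 had a negative change (median -0.21). Srsf5, a splicing factor, fell from 310, 320 and 310 FPKM to 198, 165 and 192 FPKM (-0.76 ± 0.12, limma adjusted p = 0.0131). Its call was lost in 4 of 16 other settings, which were median-of-ratios scaling, the replicate block, and the fits without control 2 or control 3. Clk1, a kinase of splicing factors, fell by 0.76 ± 0.19 (limma adjusted p = 0.0499), and its call was lost in 12 of 16. No gene of the list was called in the 4 settings in which Srsf5 was not.

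Of 19 snoRNP proteins, which bind snoRNAs, none was called by limma and 1 had an unadjusted p under 0.05 (median 0.09). Nhp2 had a change of 0.41 ± 0.11 (limma adjusted p = 0.0558) and Fbl, the methyltransferase of this machinery, of 0.10 ± 0.19 (0.773). The 19 tested factors of nonsense-mediated decay had a median log2 change of 0.01, with 8 negative. Among them Gspt1, a translation release factor, had a change of 0.49 ± 0.14 (limma adjusted p = 0.0611).

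Protein-coding genes that also host snoRNAs were measured as a group of 29, of which 2 fell and none rose (median -0.28). Eif4a2, a translation initiation factor, fell from 229, 232 and 230 FPKM to 107, 109 and 108 FPKM (-1.09 ± 0.10, limma adjusted p = 0.00418), in all 16 other settings. Tpt1 fell by 0.48 ± 0.12 (limma adjusted p = 0.0462), and its call was lost in 10 of 16. Of 82 ribosomal protein genes, which share the pyrimidine start, 79 had a negative change and 1 was called, with a median of -0.34. That gene, Rpl26, fell from 409, 397 and 567 FPKM to 85.7, 108 and 100 FPKM (-2.20 ± 0.17, limma adjusted p = 0.00318). Rplp0 had a change of -0.58 ± 0.17 (limma adjusted p = 0.0733). None of the 21 snoRNAs of the host introns had a row matched, so the snoRNAs themselves are not analysed here.

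Neighbours of the members were measured in RefSeq order. Frmd8, beside Neat1, had a log2 change of 0.41 ± 0.18 (limma adjusted p = 0.161). Nrep, beside Epb41l4aos, fell from 8.62, 8.17 and 8.45 FPKM to 1.45, 1.00 and 1.87 FPKM (-1.96 ± 0.20, limma adjusted p = 0.00469), while Epb41l4a on the other side had a change of -0.21 ± 0.18 (0.453).

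Across the 6 libraries, the genes whose log2 levels were most like those of Malat1 were Inpp5f (Pearson r = 0.993), Ccn1 (0.991) and Bambi (0.988), and those most like Gas5 were Papolg (0.998), Magee1 (0.996) and Zfp397 (0.996). These are the highest of all tested genes over 6 points in 2 groups, given as a description.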

How the data were processed

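The deposited table holds FPKM as the authors computed it, 1 column per library. CASAVA and TopHat2 are named, without versions, in the submitters' processing notes. Counter, genome build, gene annotation and strand handling: not given in the sources used here. Symbols were matched for 34490 of 35275 identifiers, and 785 had none.

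The 11071 genes whose mean reached 1 FPKM were tested on log2(FPKM + 1), a scale that understates changes at low levels, with limma 3.58.1 in R 4.3.3 (lmFit, eBayes with trend, no covariate, two-sided, Benjamini-Hochberg, called at an adjusted p under 0.05). Depth came from the value of 1 fragment in 13637 single-transcript genes, with M21 lengths that may not be those used. Of low values, up to 20 fragments, 90.7% to 91.7% were whole within 0.05. The values are not counts, so no count test was run. The fit was tested on simulated data.

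The members, lists and rules were chosen with earlier results of these data known. Named genes were the members, up to 4 per list (the 2 smallest p and the 2 highest means), the 3 most similar genes of Malat1 and Gas5, and the neighbours. Not all are reported, and some results are not reported here. Crnde, Rian, Tnfrsf23, Kcnq1, Gm42418, Tmem134 and Ifi30 were chosen after their values were seen. Long non-coding genes are those in the GENCODE M21 long non-coding file. On finding protein-coding genes in it, the count was repeated without 60 genes that RefSeq lists as protein coding, an alternative chosen after seeing the data. Tables and plots came from pandas 2.3.3, numpy 2.4.6 and matplotlib 3.10.9 in Python 3.11.15.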

Additional observations from a re-analysis of the deposited data

How the results depend on the processing

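Alternatives were pseudocounts of 0.1 and 0.5, no filter, a 5 FPKM filter, quantile and median-of-ratios scaling, array weights, limma without trend, the replicate block, each library left out, and control 1 with K10-spastin 1 left out together. Same-numbered libraries deviated from their group means with correlations of -0.128, -0.378 and -0.0471. With so few libraries behind each group mean, these values cannot decide whether the numbers pair the libraries. Over all genes (569 higher, 653 lower), the calls were 319 and 348 with no filter, 1535 and 1771 with array weights, 274 and 218 with the replicate block, and 414 lower at 5 FPKM. Leaving out 1 library gave 114 to 687 higher and 31 to 707 lower. Members called lower (2) were 0 with no filter, 1 with median-of-ratios scaling, 0 with the replicate block, 1 without both libraries numbered 1, and 0 to 2 with 1 library left out. Over the lists, genes called higher (4) were 1 with no filter, 7 with median-of-ratios scaling, 16 with array weights, 0 with the replicate block, 12 without both libraries numbered 1, and 0 to 7 with 1 library left out. Those called lower (10) were 18 with quantile scaling, 53 with array weights, 5 with the replicate block, and 3 to 11 with 1 library left out. Directions reversed for Snhg12 (0.01 without K10-spastin 1, 0.11 without both numbered 1), Zfas1 (0.03 with array weights, 0.05 and 0.18 in those fits), Hnrnpk (-0.06, quantile), Sfpq (-0.02 without K10-spastin 2) and Fbl (-0.04 with quantile scaling and -0.04 without K10-spastin 2). The cause was not tested. With 1 library left out these ranged from -0.47 to 0.01 for Snhg12, -0.47 to 0.05 for Zfas1, -0.02 to 0.35 for Sfpq, -0.04 to 0.27 for Fbl and 0.03 to 0.14 for Hnrnpk. Removing genes that RefSeq lists as protein coding, added after seeing the data, left 37 of the 39 long non-coding genes called lower. Over settings the log2 change was -2.83 to -1.83 for Neat1, -1.10 to -0.72 for Snhg15, -0.46 to -0.13 for Malat1, -0.59 to -0.19 for Gas5 and -0.67 to -0.17 for Epb41l4aos. Depth limits most the RNAs with the fewest fragments. If the M21 lengths are those used, these were Kcnq1ot1, at about 108 to 417 fragments a library, Epb41l4aos, at about 118 to 225, and Snhg15, at about 131 to 505.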
